A study of Mus musculus with 22 samples.

Results

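The transcriptional corepressor genes Ncor1, Mta1 and Tbl1xr1 held 7 of the 10873 skipped-exon events listed in any of 7 RNA-seq libraries of mouse embryonic stem (ES) cells. A skipped-exon event is a cassette exon with the neighbouring exon on each side, and the members are the events whose whole span lay inside the mm10 span of 1 of these 3 genes. Ncor1 had 4 of them, Mta1 2 and Tbl1xr1 1. An 8th event overlapped the Ncor1 span only in part, on the other strand, and was left out. The 3 genes, and within them the 27-nt exon of Ncor1, the 36-nt exon of Mta1 and the 110-nt exon of Tbl1xr1, were chosen by their inclusion levels in untransfected wild-type and knockout cells, so those levels are given as a description without a test.

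Corepressors are protein complexes that transcription factors bring to chromatin to lower transcription, mostly by removing acetyl groups from histones. Ncor1 is the scaffold of the NCoR complex: it binds unliganded nuclear receptors and activates the deacetylase Hdac3, and Tbl1xr1 is a WD40-repeat subunit of that same complex. Mta1 is a scaffold of the NuRD complex, which joins the deacetylases Hdac1 and Hdac2 to a nucleosome remodeller and, through Mbd2, to methylated DNA, and which ES cells need to leave the pluripotent state properly.

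The series asked how DNA methylation and the heterochromatin protein HP1, a reader of methylated histone H3, bear on exon choice. WT was the R1 ES cell line. TKO was a published ES cell line of another source with the DNA methyltransferase genes Dnmt1, Dnmt3a and Dnmt3b knocked out, so any other difference between the lines cannot be told apart from the loss of these enzymes. R1 cells were also transfected with siRNA to HP1alpha, HP1beta or HP1gamma (90 nM each) or to all 3 together (60 nM of each), and TKO cells with all 3 together (80 nM for HP1alpha, 80 nM for HP1beta and 120 nM for HP1gamma), for 48 h. The cultures had no feeder cells and were kept on gelatin in medium with the cytokine LIF. The labels give 2 biological replicates per group, but the deposited summaries pool them, so each group is 1 library and every test below compares libraries, not conditions. The labels name no control siRNA for any group. The untransfected libraries are 50-base single reads from an Illumina Genome Analyzer and the 5 knock-down libraries are 101-base read pairs from a HiSeq, so knock-down, transfection and read type cannot be told apart in any comparison of a knock-down with an untransfected library. The TKO triple knock-down also differs in siRNA dose from every R1 knock-down. Dose and cell line therefore cannot be told apart between them, nor in any contrast built on that pair.

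The libraries held 4677236 reads over listed events in the triple knock-down to 25941844 in WT, and the median deposited interval of a level was 0.09 wide in both untransfected libraries, against 0.15 to 0.18 for the knock-downs. Over all events there were 6.25 inclusion reads per skipping read in WT and 6.82 in TKO, but only 2.96 to 3.22 in the 5 knock-downs. Reads over events of Dnmt3a and Dnmt3b in TKO were 0.45 and 0.157 times those in WT, relative to all event reads. Reads of the HP1 genes Cbx5 (HP1alpha), Cbx1 (HP1beta) and Cbx3 (HP1gamma) in their own single knock-down were 0.399, 0.324 and 0.634 times those in the other single knock-downs. On the same scale they were 0.522, 0.352 and 0.71 in the triple knock-down and 0.468, 0.641 and 0.691 in the TKO triple knock-down. Of 8 ES cell markers, Zfp42, Klf4 and Tdh had events in all 7 libraries and the other 5, Pou5f1, Nanog and Sox2 among them, had none listed. Of 7 markers of fibroblasts and differentiated cells, Fn1 had events in all 7 libraries and the other 6 had none, and the files list only events with at least 100 reads.

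The 7 exons differed widely in size and setting. The Ncor1 exons, on the minus strand of chromosome 11, were 27 nt long (62403436 to 62403462), 174 nt (62359761 to 62359934), 99 nt (62349395 to 62349493) and 141 nt (62349353 to 62349493). The last pair are versions of 1 exon with the same neighbours and the same 5′ end, and their 3′ ends lie 42 nt apart. The Mta1 exons, on the plus strand of chromosome 12, were 51 nt (113120211 to 113120261) and 36 nt long (113133541 to 113133576). The Tbl1xr1 exon, on the plus strand of chromosome 3, was 110 nt long (22089413 to 22089522). Lengths that are multiples of 3, which keep the reading frame where an exon is coding, were found in 6 of the 7 members and in 46.6% of all events. The exception was the Tbl1xr1 exon, whose length leaves a remainder of 2. Whether each exon is coding was not analysed here.

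**Figure D1:**
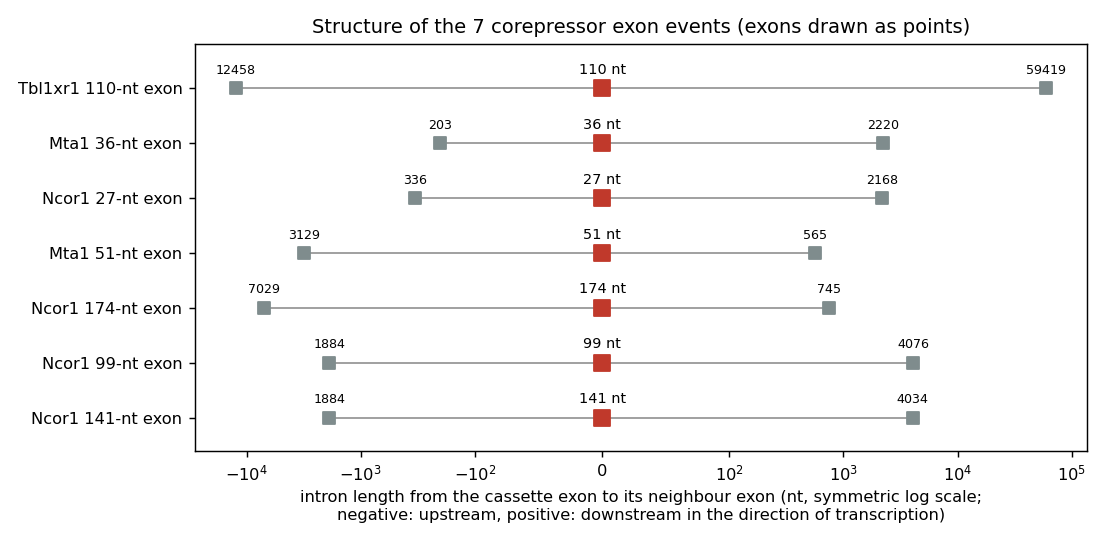
Each line is 1 of the 7 events, with the cassette exon at 0 and the neighbouring exons placed at the intron length on a symmetric log axis in nt, upstream to the left. The Tbl1xr1 exon sits between introns of 12458 and 59419 nt, while the Mta1 36-nt and Ncor1 27-nt exons have upstream introns of 203 and 336 nt.

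The Tbl1xr1 event had the longest introns of the members, 12458 nt upstream and 59419 nt downstream, against medians of 1980 and 1950 nt over all events. A longer downstream intron was found in 1.76% of events. Its upstream exon begins at base 22076652, a start site of Tbl1xr1 in the RefSeq promoter table. The RefSeq span of the gene begins farther upstream, at base 22076253, so other transcripts may start before it. The 250 bases before base 22076652 are shown because the TKO cells lack the enzymes that methylate CG sites: the sequence is from RefSeq (GRCm38.p6, chr3:22076402-22076651, plus strand), 5′ to 3′, with CG, which reads the same on both strands, in capitals.
Tbl1xr1 promoter: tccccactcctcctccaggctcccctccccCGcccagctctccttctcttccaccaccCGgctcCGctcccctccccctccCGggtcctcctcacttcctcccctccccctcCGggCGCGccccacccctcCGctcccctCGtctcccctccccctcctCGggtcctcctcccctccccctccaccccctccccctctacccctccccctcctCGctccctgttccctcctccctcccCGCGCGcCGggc
It holds 15 CG sites. The median over 32851 RefSeq promoter windows of 250 bases was 6, and 72.7% of the windows held fewer than this one. The Mta1 window held 39 CG sites, and the windows of the annotated Ncor1 start sites held 34 and 2. Methylation at these sites was not analysed here.

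Inclusion was read as the level deposited for each event, the estimated share of a gene's transcripts over that event that contain the exon, from 0 to 1, with its deposited interval. Behind it are counts of distinguishing reads, those that fit only the transcript with the exon (inclusion reads) or only the one without it (skipping reads). An event was tested in a pair of libraries where each had at least 20 distinguishing reads, and was called where Fisher's exact test on these reads gave a Benjamini-Hochberg adjusted p of at most 0.05 over all events tested and the levels differed by at least 0.1. Intervals and p-values cover counting error only. The longer the exon, the more inclusion reads it gives per transcript, so the share of inclusion reads can lie above the level.

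The 27-nt exon of Ncor1 was included less in TKO than in WT. Its level was 0.79 (interval 0.74 to 0.85) in WT, from 161 inclusion and 39 skipping reads. In TKO it was 0.63 (0.56 to 0.69), from 142 and 78. The intervals did not overlap, the level was 0.16 lower in TKO, and 498 of the 7695 events tested between these libraries differed by more. Most transcripts over this small exon still contained it in both libraries.

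The knock-down libraries could not resolve that exon. It was listed at 0.38 (0.11 to 0.74) in the HP1alpha knock-down, from 5 inclusion and 2 skipping reads. In the HP1beta knock-down it was listed at 0.63 (0.17 to 0.95) from 2 inclusion reads, and in the triple knock-down at 0.44 (0.05 to 0.94) from 1. It was not listed in the HP1gamma knock-down or the TKO triple knock-down. These 3 intervals overlapped each other and that of TKO, and the one of HP1alpha only reached 0.74, the lower bound in WT. No difference was detectable from so few distinguishing reads. Of all reads over the event, 98.1% in HP1alpha, 99.4% in HP1beta and 99.5% in the triple knock-down fitted neither transcript. In WT and TKO these were 77.7% and 80.3%.

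The 174-nt exon of Ncor1 was a mostly included exon in every library. Its level was 0.82 (0.77 to 0.88) in WT, from 357 inclusion and 19 skipping reads, and 0.87 (0.82 to 0.91) in TKO, from 579 and 15. This gap of 0.05 was not called (adjusted p = 0.298, Fisher's exact test). The single knock-downs lay lower, at 0.73 (0.66 to 0.78) for HP1alpha, 0.75 (0.67 to 0.82) for HP1beta and 0.67 (0.57 to 0.77) for HP1gamma, and the triple knock-down at 0.75 (0.66 to 0.83). Of these, only the HP1gamma library passed against WT, with 120 inclusion and 17 skipping reads (log2 odds ratio -1.41, adjusted p = 0.0357, Fisher's exact test), and its interval touched that of WT at 0.77. The lowest level was in the TKO triple knock-down, 0.61 (0.51 to 0.71), from 114 inclusion and 24 skipping reads.

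Set against untransfected TKO, that library gave the smallest adjusted p among the 4 member events whose levels did not choose the genes. Inclusion of the 174-nt exon fell by 0.26, the share of inclusion reads went from 97.5% (95% Clopper-Pearson interval 95.9 to 98.6) to 82.6% (75.2 to 88.5), and the adjusted p was 3.14e-08 (Fisher's exact test, log2 odds ratio -3.0). The median log2 odds ratio over all events tested in the same pair was -1.65, and -0.848 over those with at least 5 reads of each class in both libraries, so most exons shifted in the same direction. Between the triple knock-downs of TKO and WT, which share a read type but not a siRNA dose, the level was 0.14 lower in TKO (unadjusted p = 0.0277, adjusted p = 0.715, Fisher's exact test). The TKO to WT log2 odds ratio was thus 1.03 without siRNA and -1.09 under the triple knock-down. Zelen's exact test of that difference gave p = 0.00307 and an adjusted p of 0.0927 over 4344 events, which did not pass.

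The most downstream of the listed Ncor1 exons, which is not the last exon of the gene, exists in a 99-nt and a 141-nt version. Nearly all transcripts of untransfected cells contained one or the other. The 99-nt version was at 0.96 (0.94 to 0.97) in WT and 0.95 (0.93 to 0.96) in TKO, and the 141-nt version at 0.97 (0.95 to 0.98) and 0.96 (0.95 to 0.97). WT and TKO overlapped for both versions and the adjusted p was 1 for each (Fisher's exact test). Each version is estimated against skipping alone and both use the same skipping reads, so their levels are not shares of 1 whole.

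All 5 knock-down libraries showed lower levels of both versions. The 99-nt version was at 0.47 (0.36 to 0.59) in the HP1alpha knock-down, 0.55 (0.39 to 0.72) in HP1beta, 0.51 (0.30 to 0.75) in HP1gamma, 0.64 (0.43 to 0.85) in the triple knock-down and 0.61 (0.41 to 0.80) in the TKO triple knock-down. None of these intervals reached those of WT and TKO. It was called against WT in HP1alpha (adjusted p = 2.21e-05), HP1beta (0.00281) and HP1gamma (0.0384) by Fisher's exact test, not in the triple knock-down (0.346), and not in the TKO triple knock-down against TKO (0.0694). The 141-nt version ranged from 0.70 (0.59 to 0.80) in HP1alpha to 0.83 (0.67 to 0.95) in the triple knock-down, and was called only in HP1alpha (adjusted p = 0.0168, Fisher's exact test). The shares of inclusion reads moved less than the levels. Against its untransfected library the share differed by -5.41 to -14.2 percentage points over the 5 knock-downs for the 99-nt version and by -0.759 to -4.36 for the 141-nt version. With the difference of at least 0.1 asked of this share, the calls of the 141-nt version in HP1alpha and the 174-nt exon in HP1gamma were lost.

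**Figure D2:**
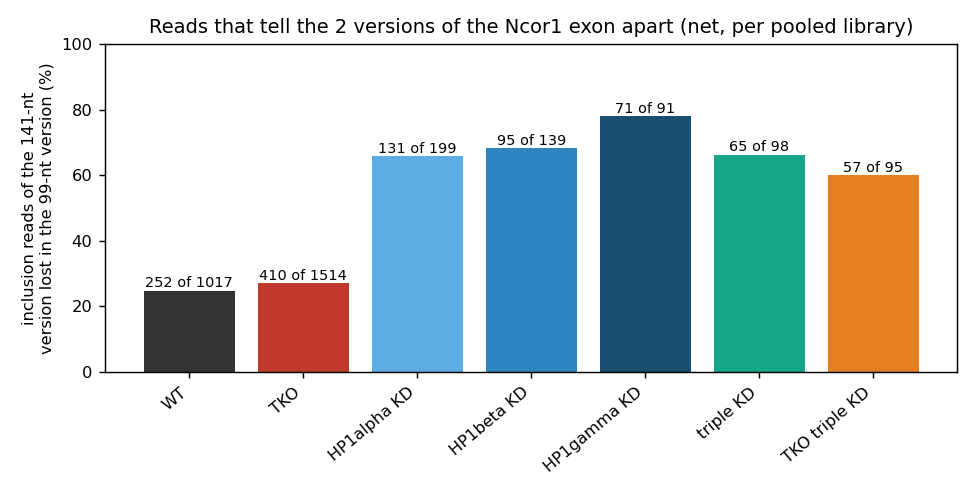
Bars give, for each pooled library, the percent of inclusion reads of the 141-nt version that are no inclusion reads of the 99-nt version, with the net number of reads above each bar. WT and TKO stand at 24.8% and 27.1% and the knock-downs, with longer paired reads, between 60% and 78%.

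The reads divided otherwise between these versions in the knock-downs than in WT and TKO, which also differ from them in read type. Both events held the same total reads in every library, for example 1964 in WT, and reads that counted for the 141-nt version and not for the 99-nt version were moved to the class that fits neither transcript. They were 252 of 1017 inclusion reads in WT (24.8%) and 410 of 1514 in TKO (27.1%). In the knock-downs they were 131 of 199 in HP1alpha (65.8%), 95 of 139 in HP1beta (68.3%), 71 of 91 in HP1gamma (78%), 65 of 98 in the triple knock-down (66.3%) and 57 of 95 in the TKO triple knock-down (60%). The 5 knock-down libraries lay together, apart from the 2 untransfected ones, on either genetic background. The part of this shift in the lower levels was not tested. With a null odds ratio set by the typical shift of exons of like length in place of 1, the call of the 141-nt version in HP1alpha and those of the 99-nt version and the 174-nt exon in HP1gamma were lost.

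Tbl1xr1 had the widest gap between WT and TKO of all 7695 events tested: no other event differed by more than its 0.70. In WT the level was 0.20 (0.11 to 0.32), from 12 inclusion and 26 skipping reads. In TKO it was 0.90 (0.74 to 1.00), from 23 inclusion and 0 skipping reads. On these levels the upstream exon was joined mostly to a later exon in WT and mostly to the 110-nt exon in TKO. The inclusion share was 31.6% (Clopper-Pearson 17.5 to 48.7) in WT and 100% (85.2 to 100) in TKO.

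Few of the reads over this event could tell its versions apart. In WT 6138 of 6295 reads, and in TKO 5262 of 5332, fitted neither transcript. The pseudogene Gm5842 lies inside the event's long span, and its part in these reads was not tested. Reads that fitted at least 1 of the versions numbered 157 for WT and 70 for TKO.

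No knock-down library gave a usable reading of the Tbl1xr1 exon. Levels were 0.19 (0.02 to 0.53) in HP1alpha from 3 distinguishing reads, 0.44 (0.17 to 0.78) in HP1beta from 7 and 0.19 (0.00 to 0.76) in HP1gamma from 1. The triple knock-down stood at 0.55 (0.15 to 0.93) from 2 such reads and the TKO triple knock-down at 0.53 (0.10 to 0.88) from 1. Every one of these intervals overlapped that of WT, and all but that of HP1alpha also overlapped that of TKO. Of all reads over the event in the knock-downs, 98.4% to 99.8% fitted neither transcript. Whether the gap between WT and TKO persisted under HP1 knock-down could not be told from so few distinguishing reads.

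**Figure D3:**
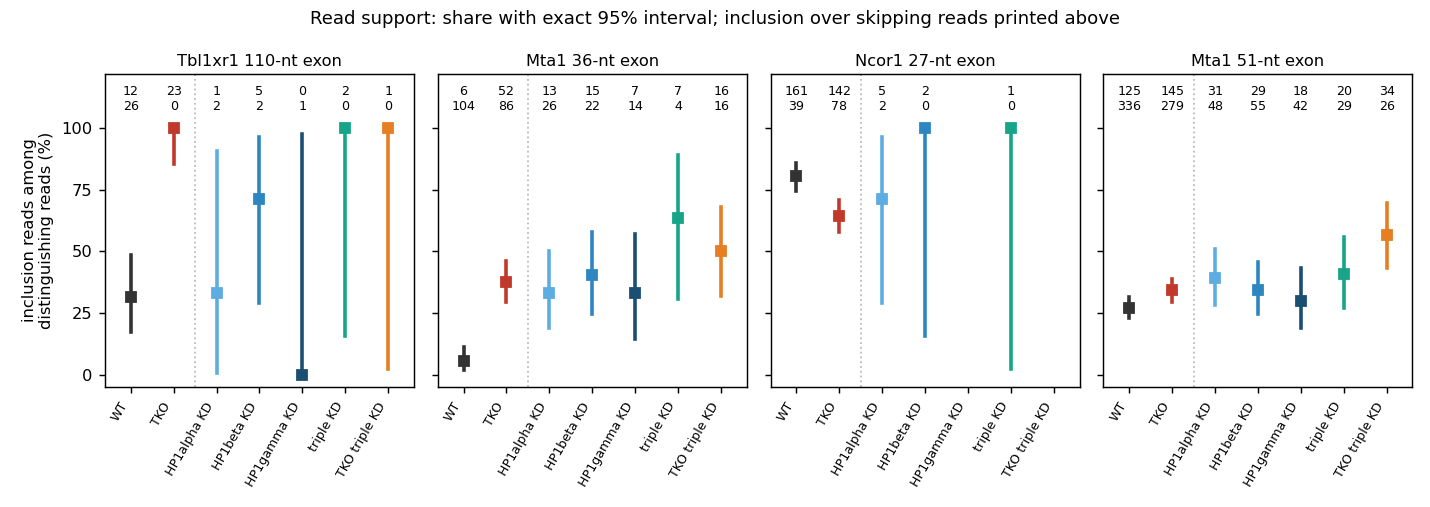
Squares show the percent of inclusion reads among distinguishing reads with exact 95% intervals, for the 3 exons that chose the genes and the Mta1 51-nt exon, with inclusion over skipping reads printed above each library. Tbl1xr1 has 38 and 23 such reads in WT and TKO and at most 7 in any knock-down.

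The 36-nt exon of Mta1 was nearly always skipped in WT and stood at 0.14 to 0.38 in the other 6 libraries. In WT 6 inclusion and 104 skipping reads gave a level of 0.03 (0.01 to 0.06). The TKO level was 0.25 (0.19 to 0.32), from 52 and 86 reads. The difference was 0.22, and 250 of the 7695 events tested differed by more. Skipping remained the more common outcome in TKO as well.

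In R1 cells with HP1 knock-down the Mta1 36-nt exon was at 0.19 (0.11 to 0.30) for HP1alpha, 0.23 (0.13 to 0.37) for HP1beta and 0.14 (0.06 to 0.26) for HP1gamma. The triple knock-down stood at 0.38 (0.15 to 0.68) from only 11 distinguishing reads, and the TKO triple knock-down at 0.27 (0.16 to 0.40) from 32. WT was below all 6 others, and its interval touched only that of HP1gamma, at 0.06. Its log2 odds ratio against WT was 3.03 with HP1alpha, 3.47 with HP1beta and 3.06 with HP1gamma siRNA. WT is 1 of the libraries by which the exon was chosen, so these values carry no test and nothing is read from their direction.

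Among the knock-down libraries, which the choice did not use, the order of the Mta1 36-nt exon could not be resolved. Inclusion shares were 33.3% (19.1 to 50.2) in HP1alpha, 40.5% (24.8 to 57.9) in HP1beta, 33.3% (14.6 to 57) in HP1gamma and 50% (31.9 to 68.1) in the TKO triple knock-down, with exact intervals. The triple knock-down of R1 cells, under the read minimum, had the highest share, 63.6% (30.8 to 89.1), from 7 inclusion and 4 skipping reads. Unadjusted p-values between the single knock-downs were 0.635, 1 and 0.779 (Fisher's exact test). The TKO triple knock-down against the summed single knock-downs, 16 inclusion and 16 skipping reads against 35 and 62, gave a log2 odds ratio of 0.82 and an adjusted p of 1 (Fisher's exact test). The exact intervals are wide, so these values do not show that the libraries were alike.

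The 51-nt exon of Mta1 was mostly skipped and varied less. It stood at 0.19 (0.16 to 0.22) in WT, from 125 inclusion and 336 skipping reads, and at 0.23 (0.19 to 0.26) in TKO, from 145 and 279 (unadjusted p = 0.0236, adjusted p = 0.179, Fisher's exact test). The knock-downs of R1 cells ranged from 0.18 (0.11 to 0.27) in HP1gamma to 0.26 (0.16 to 0.36) in the triple knock-down, none called against WT. The TKO triple knock-down was highest, at 0.39 (0.29 to 0.52), from 34 inclusion and 26 skipping reads.

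Against untransfected TKO the 51-nt exon rose by 0.16 in that library (log2 odds ratio 1.32, adjusted p = 0.00699, Fisher's exact test), while the median over all events was -1.65 (-0.848 with at least 5 reads of each class). Its share of inclusion reads was 34.2% (29.7 to 38.9) in TKO and 56.7% (43.2 to 69.4) with the siRNAs. No untransfected TKO library shares its read type, so the rise itself could not be tested within a read type. The R1 knock-downs share the read type but differ in cell line, and against them the higher level was not called. The gap to the triple knock-down of R1 cells was 0.13 (unadjusted p = 0.124, adjusted p = 1, Fisher's exact test), and against the summed single knock-downs, 78 inclusion and 145 skipping reads, the adjusted p was 0.143 (unadjusted p = 0.00289, Fisher's exact test). The deposited levels of both Mta1 exons were below 0.40 in every library. Their intervals reached up to 0.68 for the 36-nt exon in the triple knock-down of R1 cells and 0.52 for the 51-nt exon in that of TKO.

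**Figure D4:**
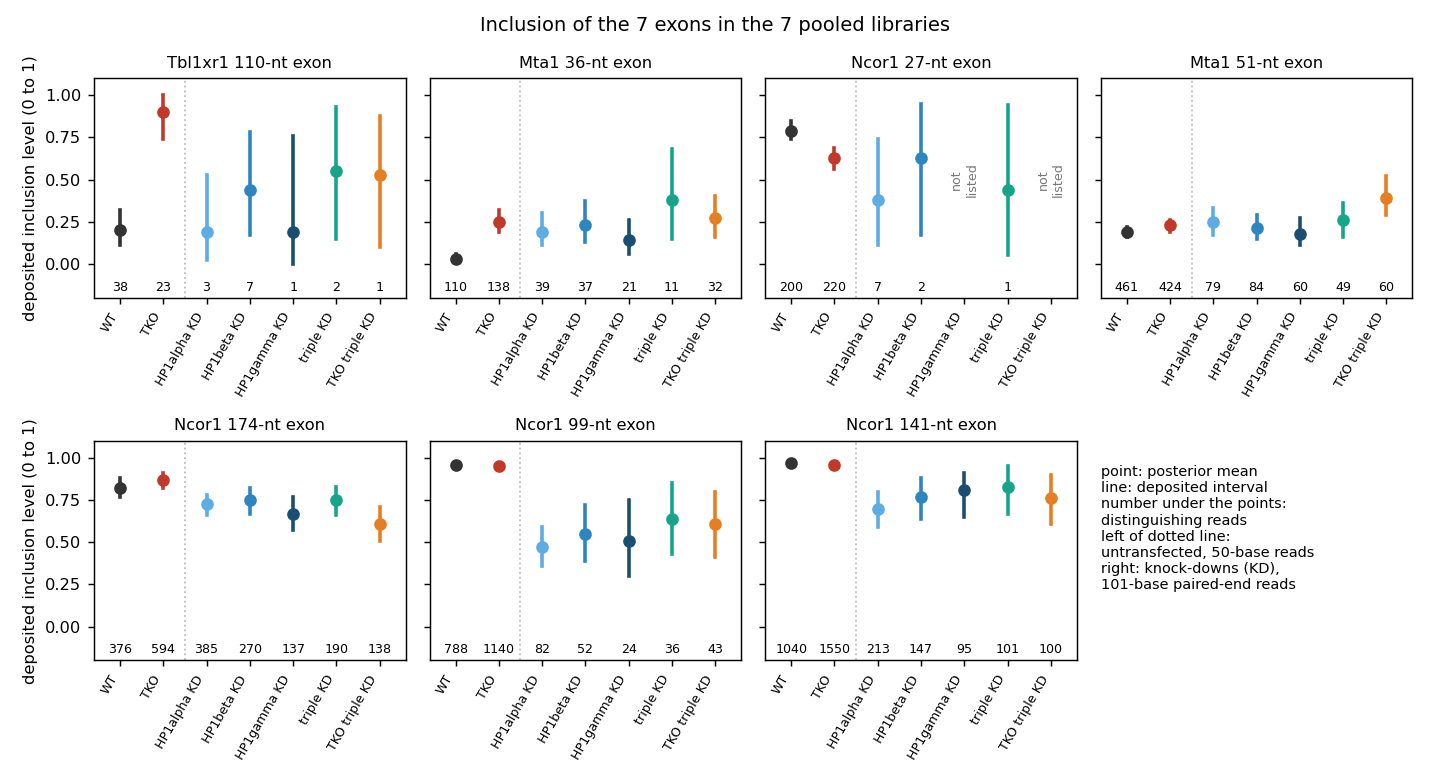
Points are deposited inclusion levels of the 7 exons in the 7 pooled libraries, lines their deposited intervals, and the numbers below count distinguishing reads. The dotted line parts the untransfected libraries from the knock-downs: the Mta1 36-nt exon is at 0.03 in WT and 0.14 to 0.38 elsewhere, and the Ncor1 99-nt version is at 0.96 and 0.95 on the left and 0.47 to 0.64 on the right.

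Counted over the members, TKO against WT called 3 of 7 events, 2 higher and 1 lower, where 4.57% of all tested events were called (3.18% higher and 1.39% lower). These are the 3 exons that chose the genes, so nothing is read from that count. Of the 4 members whose levels did not choose the genes, the HP1alpha knock-down called 2 against WT (background 11.8%), HP1beta 1 (11.8%), HP1gamma 2 (11.4%) and the triple knock-down 0 (11.2%). All of these were Ncor1 events with lower levels. The 2 in HP1alpha were both versions of the last Ncor1 exon, which share their skipping reads. Wherever both versions are counted, they are 1 exon and not 2 separate results. The Mta1 36-nt exon also met the call rule in each single knock-down, higher, but was chosen by its WT level, so nothing is read from that. Over all tested events 1.64% were called higher and 10.2% lower in HP1alpha, 1.92% and 9.91% in HP1beta, and 1.6% and 9.84% in HP1gamma. These comparisons share the WT library. The triple knock-down, with the fewest reads, left 3 members under the read minimum, and for it 1 member, the Mta1 51-nt exon, had an unadjusted p below 0.05 (0.0471, Fisher's exact test). In TKO the triple knock-down called 2 of the same 4 members, the Mta1 51-nt exon higher and the Ncor1 174-nt exon lower (background 12.3%, of which 1.31% higher and 10.9% lower). Calling by deposited intervals apart and a difference of at least 0.1 instead gave 2 of 7 listed members in the triple knock-down of R1 cells, the Mta1 36-nt exon and the Ncor1 99-nt version (background 17.8%), and 4 of 6 in that of TKO, which added both versions of the last Ncor1 exon (background 18.8%).

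No member was called in the 6 pairs of R1 knock-downs, between the triple knock-downs of TKO and WT, or between the TKO triple knock-down and the summed single knock-downs. Under the triple knock-down, TKO against WT called 0 of 4 tested members by Fisher's exact test, with 1 unadjusted p below 0.05 (the Ncor1 174-nt exon, 0.0277), and 0.469% of all tested events. The 6 pairs among the HP1 knock-downs of R1 cells called 0 members, with no unadjusted p below 0.05, where the share of all events called was 0.0171% for HP1beta against HP1alpha, 0% for HP1gamma against HP1alpha, 0.019% for HP1gamma against HP1beta, and 0.0214%, 0% and 0.0217% for the triple against the HP1alpha, HP1beta and HP1gamma knock-down. The added comparison of the TKO triple knock-down with the summed single knock-downs called 0 of 5 (background 0.643%, by the share of inclusion reads), with unadjusted p below 0.05 for the Mta1 51-nt exon (0.00289) and the Ncor1 174-nt exon (0.0192). Zelen's exact test of the change in the TKO effect called 0 of 4 (background 2.69%), with 1 unadjusted p below 0.05, that of the Ncor1 174-nt exon.

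**Figure D5:**
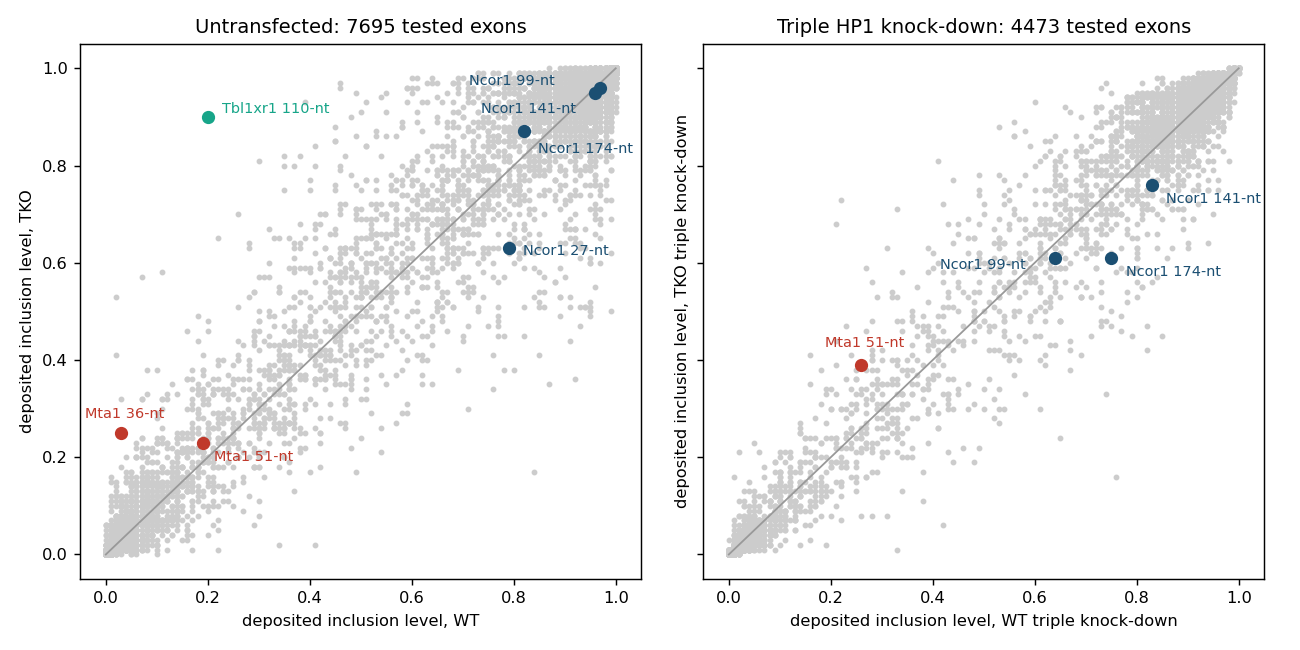
Each point is 1 tested exon, with its deposited inclusion level in WT on the x axis and in TKO on the y axis, untransfected at left (7695 exons) and under triple HP1 knock-down at right (4473 exons). At left Tbl1xr1 lies farthest from the diagonal, at 0.20 and 0.90, and at right only 4 of the 7 members had enough reads to appear.

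The number of reads over the events, divided by all event reads of the library, was higher in TKO than in WT at every Ncor1 event. It was 1.35 times (95% interval 1.25 to 1.47) that of WT at the 27-nt event and 1.71 times (1.59 to 1.83) at the 174-nt event. At the 99-nt and 141-nt versions, which share their reads, it was 1.60 times (1.51 to 1.70). Under the triple knock-down the TKO to WT ratio was below 1 at both Ncor1 exons listed in each library, 0.518 (0.439 to 0.611) and 0.638 (0.547 to 0.744). The Mta1 events moved in opposite directions, so no direction is given for that gene: the 36-nt event had 0.857 times (0.80 to 0.918) and the 51-nt event 1.12 times (1.06 to 1.19) as many reads in TKO as in WT, and under the triple knock-down 1.18 times (1.05 to 1.32) and 0.756 times (0.631 to 0.906). The Tbl1xr1 event had 0.872 times (0.841 to 0.904) as many without siRNA and 0.806 times (0.707 to 0.918) under the triple knock-down. With only the reads that fit at least 1 version of the event, the Tbl1xr1 ratio was 0.447 (0.332 to 0.596) without siRNA, and that of the Mta1 36-nt event was 0.929 (0.827 to 1.04). In bulk RNA, fewer cells with a transcript and less of it per cell cannot be told apart.

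Other genes of the same complexes were read from 4 lists with 44 genes: other subunits of the NCoR complex, NuRD, the Sin3 and CoREST complexes, and readers of methylated CG sites. Of their 27 events tested between TKO and WT (background 4.57%), 1 was higher, 1 was lower and 25 were not called. The median absolute difference was 0.02 for the 22 events of Sin3 and CoREST genes, 0.005 for the 2 of NuRD genes, 0.06 for the 2 of readers of methylated CG sites and 0.12 for the 1 of the NCoR complex, against 0.02 over all events. The exon of Mbd1, a reader of methylated CG sites, went from 0.48 in WT to 0.59 in TKO, and a 261-nt exon of Arid4b, a Sin3 subunit, from 0.92 to 0.82. Both were called with overlapping intervals and are named here after their values were seen.

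Every listed exon that passed in a knock-down against its untransfected library was lower there, the direction in which the median event also moved. The HP1alpha knock-down called 1 of 24 lower (background 10.2% lower), HP1beta 2 of 23 (9.91%) and HP1gamma 1 of 17 (9.84%). The triple knock-down called 0 of 17 (background 11.2% in either direction). None was called higher, and nothing is read from these small counts. A 60-nt exon of Kdm1a, the histone demethylase of CoREST, went from 0.67 in WT to 0.50 with HP1alpha siRNA, 0.49 with HP1beta and 0.53 with HP1gamma, with adjusted p of 5.3e-07, 6.21e-07 and 0.000335 (Fisher's exact test). A 153-nt exon of Arid4b went from 0.13 to 0.02 in HP1beta. In TKO the triple knock-down called 2 of 15 lower (background 10.9% lower). They were an exon of the corepressor Ctbp2, from 0.85 to 0.71, and one of Ctbp1, from 0.99 to 0.87. With the null odds ratio set by the typical shift of like-sized exons, the calls of the 153-nt Arid4b exon in HP1beta, the Ctbp1 and Ctbp2 exons in TKO cells and the Mbd1 exon were lost. Asking the difference of at least 0.1 of the share of inclusion reads lost the calls of Ctbp1, Ctbp2 and the 261-nt Arid4b exon. On a scale of 0 to 1 their shares differed by -0.0355, -0.0359 and -0.038. None of 14 listed events was called between the triple knock-downs of TKO and WT (background 0.469%), and none between R1 knock-downs (background at most 0.0217%).

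Exons with a like course of levels were sought among 4309 events with enough reads in all 7 libraries. Closest to the Mta1 36-nt exon, by the root mean square difference of the level over 7 libraries, were exons of Mgrn1 (0.0669), Cdk5rap2 (0.0748) and Slc25a38 (0.0769). The Mgrn1 exon stood at 0.17 in WT and 0.31 in TKO but at 0.07 in the HP1gamma knock-down, so WT was not its lowest level. The Cdk5rap2 exon stood at 0.07 in WT and 0.22 in TKO, with knock-down levels of 0.19 to 0.24. In the triple knock-down the Mta1 level itself rests on 11 distinguishing reads. For the Ncor1 27-nt exon, over the 5 libraries that list it, they were exons of Ceacam1 (0.0846), Ercc8 (0.0846) and Ocel1 (0.085). Closest to the Tbl1xr1 exon were those in Clk4 (0.171), Prrc2b (0.174) and Szrd1 (0.178), of which the Clk4 exon went from 0.49 in WT to 0.70 in TKO. The levels of the Ncor1 27-nt exon rest on at most 7 distinguishing reads in 3 of its 5 libraries and those of the Tbl1xr1 exon in 5 of 7, so little can be read from these likenesses.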

How the data were processed

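The deposited files hold, per the file headers, MISO summaries of skipped-exon events, 1 per group: the inclusion level of each event as a fraction with its interval, rounded by the authors to 2 decimals, and the read counts of 4 classes (inclusion only, skipping only, both, neither). Alignment used TopHat2 and Bowtie2 with mm10, per the submitters' processing notes. For their versions and the coverage of the interval the sources used here give nothing. The 14 RNA samples had been pooled into 7 libraries, and samples of other assays were not analysed here.

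Events were placed in genes by RefSeq gene spans on the same build. Pairs of libraries were compared with Fisher's exact test, and the change in the TKO effect with Zelen's exact test, both computed in Python 3.11.15 with numpy 2.4.6, pandas 2.3.3 and scipy 1.17.1 and tested on simulated data. A pseudocount of 0.5 entered log2 odds ratios only. All 7 members are described. Of other genes, the called events with intervals apart were named, at most 10 per comparison and 1 per gene, and for likeness the 3 closest events of other genes. Some results of other complex genes are not reported here. Members, gene lists and rules were chosen with earlier results of these data known. Alternatives varied the read minimum, the level difference, the adjustment, the null odds ratio and the interval rule.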

Additional observations from a re-analysis of the deposited data

How the results depend on the processing

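No paired analysis was possible because the replicates of each group were pooled before deposit. Of the summary values recomputed under each alternative, 93 stayed the same or nearly so, 16 moved, 3 gained a first call, 1 lost its last and 2 reversed. Small changes in a count, such as from 3 calls to 2, and read ratios inside the interval of the reported one were put with the 93. With Bonferroni adjustment the members called against WT were 1 in HP1alpha (5.84% of all events), 1 in HP1beta (5.71%), which was the Mta1 36-nt exon, and 0 in HP1gamma (5.56%), and 1 in the TKO triple knock-down against TKO (6.26%). With at least 50 distinguishing reads they were 1 in HP1beta (12.8%) and 1 in HP1gamma (12.5%), both Ncor1 exons. A level difference of at least 0.2 left 1 Ncor1 exon in HP1gamma (6.6%) and 1 in the TKO triple knock-down (7.4%). A null odds ratio set by exon length left 1 in HP1gamma (8.66%), the Mta1 36-nt exon. With at least 10 reads, 1 member was called in the triple knock-down against WT (10.7%) and 1 by Zelen's exact test (2.45%), both the Mta1 36-nt exon. That exon was chosen by its WT level, so its calls are no test. Calling by intervals apart gave 2 in the triple knock-down against WT and 4 in the TKO triple knock-down against TKO. With only reads that fit a version of the event, the TKO to WT read ratio was 0.929 for Mta1 and 0.447 for Tbl1xr1. Under the triple knock-down it was 1.64 for Mta1 (interval 0.955 to 2.94, which includes 1), from 52 reads in TKO and 19 in WT. For Tbl1xr1 it was 0.1 (0.00217 to 0.824), from 1 read in TKO and 6 in WT, too few to give its size. Read from the other events of the gene, the ratio was 1.12 and 0.756 for Mta1, which reversed both, and 1.35 and 1.71 for Ncor1, 0.518 under the triple knock-down. The summed single knock-downs and these read ratios were chosen after seeing the data. Of values at single exons, 381 kept their status as called or not called and 38 no longer passed. Most alternatives reuse the deposited level difference, so its sign could not change. The share of inclusion reads could differ in sign, as at the Mta1 51-nt exon in HP1gamma against WT (level -0.01, share 0.0289), which was not called by either. The small number of distinguishing reads limits the Tbl1xr1 and Ncor1 27-nt exons to WT and TKO.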
